A study of Mus musculus with 6 samples.

Results

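The genes described here are 10 adhesion genes of the intercalated disc, the junction that joins cardiomyocytes end to end, out of the 21269 genes in the deposited table. They were listed by name as fascia adherens, desmosome, and tight junction genes (Cdh2, Ctnna1, Ctnna3, Dsp, Jup, Pkp2, Dsg2, Dsc2, Cxadr, and Tjp1), and the rule itself uses no measured value. All 10 were in the table, and 9 reached the minimum for testing, a normalized count that averaged 5 across the 6 libraries. RNA from HL-1, a line of atrial cardiomyocytes from the mouse, was sequenced to ask which genes change when the long noncoding RNA Malat1 is silenced. In LNA Control, 3 libraries came from cells given a control gapmer (ctrl2), and in LNA Malat1, 3 libraries came from cells given a gapmer against Malat1. Gapmers are short antisense strands of DNA, flanked by locked nucleic acid (LNA), that bring RNase H to the RNA they bind. Both groups were HL-1 cells grown in Claycomb medium with norepinephrine, seeded 24 hours before transfection with 50 nM of gapmer, and collected 48 hours after it. The model has limits. HL-1 is a single line, and the loss of Malat1 and any other action of its gapmer cannot be told apart. RNA was taken from whole cultures, so fewer cells with a transcript and less transcript per cell cannot be told apart. The labels do not say that the libraries of a group came from separate cultures, so p-values measure the spread between these libraries, which may be technical.

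At the intercalated disc, the fascia adherens anchors actin filaments through N-cadherin and the catenins, and the desmosome anchors desmin filaments through its own cadherins and a plaque of plakoglobin, plakophilin-2, and desmoplakin. In the mature heart both kinds of contact mix into a hybrid zone, the area composita, to which alpha-T-catenin contributes by binding plakophilins. The scaffold ZO-1 and the receptor protein CAR are tight junction proteins in epithelia and lie at the disc in the heart. Inherited changes in desmosome genes are a known cause of arrhythmogenic cardiomyopathy.

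The deposited values are read counts per gene after scaling of each library and rounding, and are called normalized counts here. They summed to between 4831007 and 4921406 in LNA Control and between 4758777 and 4762957 in LNA Malat1, and the factors recovered from the rounding gave 4511603 to 5594499 reads on genes per library. On these reads, LNA Malat1 replicates 1 and 3 differed by less than the sampling noise over 14522 genes (chi-square 0.949 per gene), although not in the 1753 genes with at least 1600 reads (1.115 per gene, chi-square p = 0.000485). Replicates 1 and 2 also differed little (1.012 per gene, chi-square p = 0.146), while replicates 2 and 3 gave 1.163 and the LNA Control pairs 1.768 to 4.179 per gene. As the closest pair, replicates 1 and 3 were merged into 1 sample where a mean ± SD is given for LNA Malat1 (n = 2), while the test across genes used all 6 libraries. Malat1 itself had counts of 5051, 5197, and 4369 in LNA Control against 2833, 2792, and 2732 in LNA Malat1, which was 57.2% of LNA Control (log2 fold change -0.80, limma adjusted p = 7.5e-06). Of 13 cardiomyocyte markers 11 were in the table, with summed normalized counts of 5326 to 5603 in LNA Control and 5041 to 5221 in LNA Malat1. Ryr2 (2237 to 2706 across the 6 libraries) made up a large part of these sums. Gata4 (770 to 923), Tnnt2 (647 to 746), Actc1 (409 to 475), and Tbx5 (386 to 544) were also well counted. Nkx2-5 (187 to 211) and Tnni3 (164 to 196) followed. The atrial light chain genes Myl4 (30 to 49) and Myl7 (18 to 32), and Mybphl (11 to 24), were low in every library. Myh6, the gene of alpha myosin heavy chain, lay between 0 and 7, and Nppa and Sln were not analysed here.

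Divided by exonic length, the levels of the 10 genes spanned a wide range and fell in nearly the same order in both groups. In LNA Control, Dsg2, the main cadherin gene of the cardiac desmosome, was highest at 257.1 normalized counts per kb (lowest and highest library 243.2 and 271.5), followed by Ctnna1 at 236.3. These neighbours overlapped between libraries. Next came Dsp at 184.5 and Tjp1 at 182.1 normalized counts per kb, which also overlapped. Each of the remaining genes lay above the next in every library, with Cdh2 at 114.7, Pkp2 at 73.5, Jup at 53.7, Dsc2 at 24.5, Cxadr at 5.95, and Ctnna3 at 0.323 normalized counts per kb. By level per kb, Dsg2 stood at percentile 97.4 of the tested genes in LNA Control and Cxadr at percentile 16.1. In LNA Malat1 the order differed in Dsp, which moved above Ctnna1 to 236.3 normalized counts per kb, beside Dsg2 at 237.7. These were the only neighbours that overlapped there, and all LNA Malat1 libraries held more Dsp per kb than Ctnna1, whereas the LNA Control libraries all held less.

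**Figure D1:**
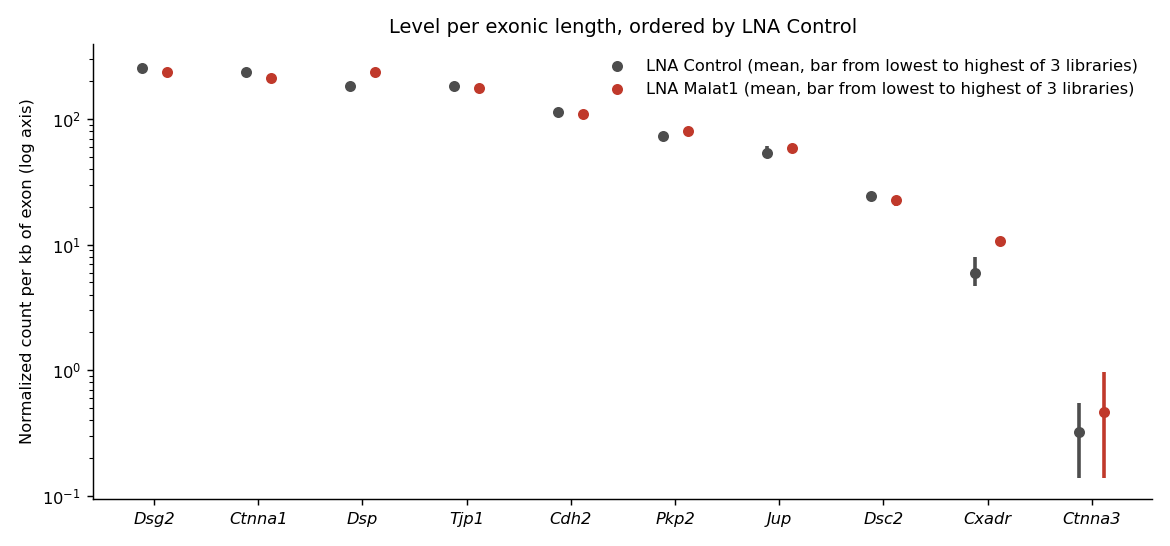
Normalized counts per kb of exon (log axis) of the 10 adhesion genes, ordered by their mean in LNA Control, with a point for the mean and a bar from the lowest to the highest of 3 libraries in each group. The levels run from 257.1 for Dsg2 to 0.323 for Ctnna3, and both Dsp and Cxadr lie higher in LNA Malat1.

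Most of the adhesion genes differed little between the groups, and the 2 that passed by the adjusted p were both higher in LNA Malat1. So few genes give no direction for the 9 as a set. Cxadr was higher by 1.82-fold and Dsp by 1.28-fold in LNA Malat1, with the 3 LNA Malat1 libraries above the 3 LNA Control libraries in both. The other 7 tested genes had log2 fold changes between -0.14 and 0.13 and did not pass the test. A call required both a limma adjusted p up to 0.05 and a change of 1.5-fold or more in either direction. By this rule 1 of the 9 tested genes, Cxadr, was upregulated, where 8.00% of all 15650 tested genes were, and 0 were downregulated, where 2.92% of all were. Before adjustment, Ctnna1 was the 1 gene that was lower at a limma p under 0.05 (unadjusted p of 0.033 in the fit across all genes). By the adjusted p alone, 2 of 9 were higher and 0 lower, against 14.3% and 14.0% of all tested genes. The libraries of the groups did not overlap in 5 of the 9 genes. LNA Malat1 was above in 2 and below in 3, against 20.5% and 20.8% of all tested genes. The median log2 fold change of the 9 genes was -0.03, beside 0.02 over all tested genes, and it was slightly positive when library totals were set equal (0.01) or quantile normalization was used (0.02).

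**Figure D2:**
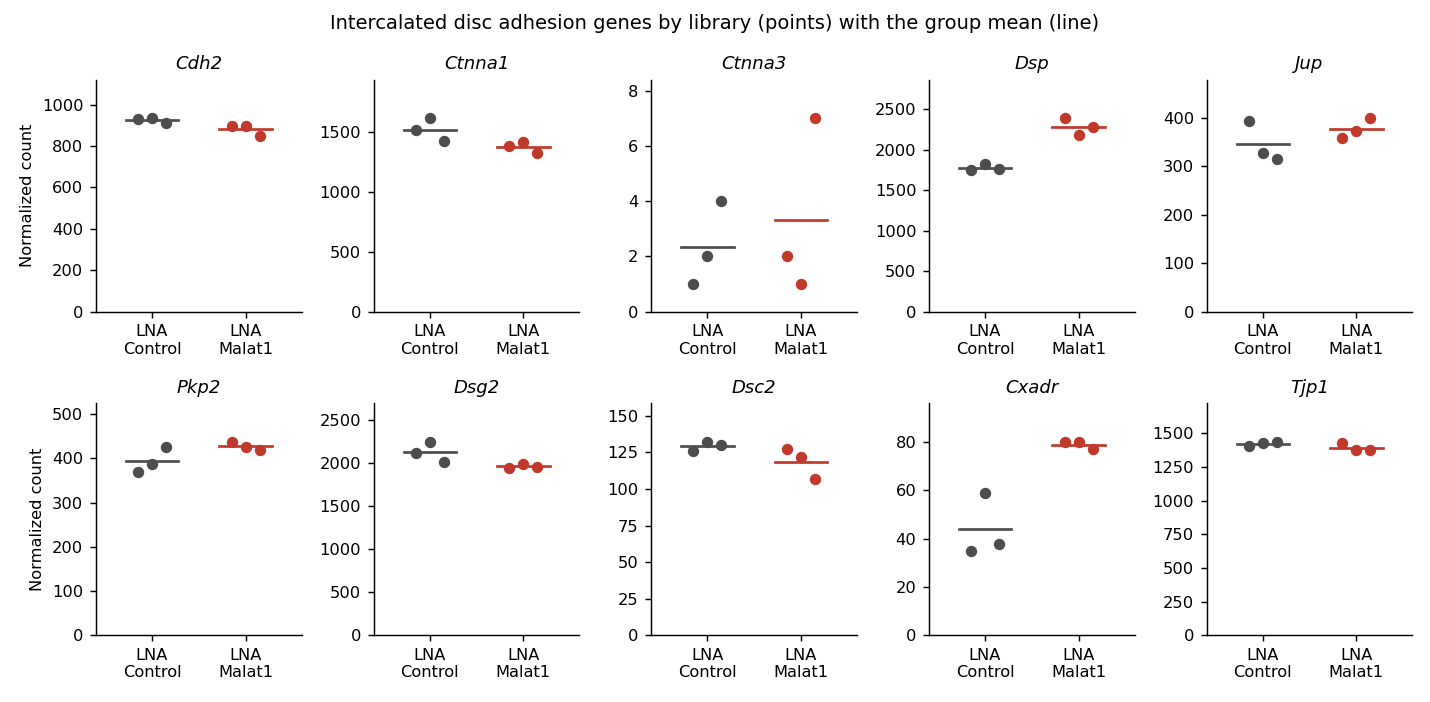
Normalized counts of each adhesion gene in the 3 LNA Control libraries (grey points) and the 3 LNA Malat1 libraries (red points), with a line at the group mean and axes that start at 0. The groups are apart in Dsp (1755 to 1821 against 2179 to 2389) and in Cxadr (35 to 59 against 77 to 80), while they lie close together or overlap in the other genes.

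**Figure D3:**
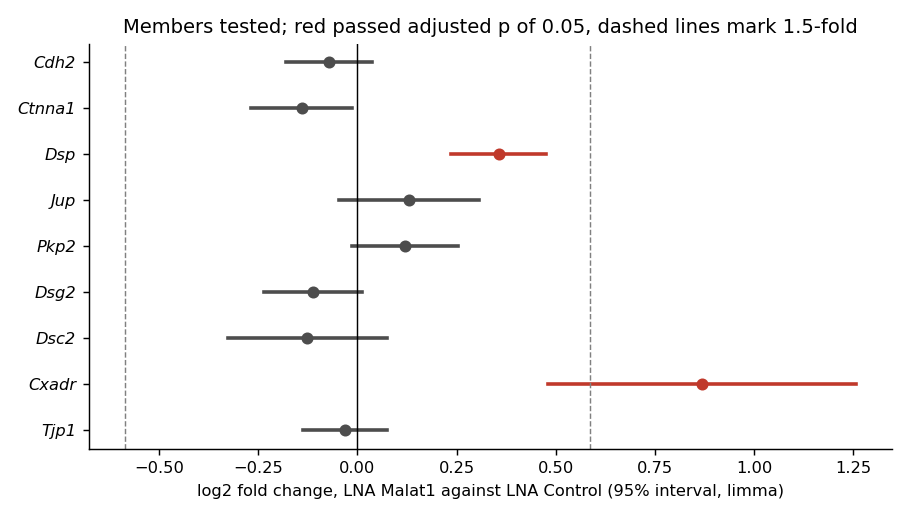
Log2 fold change of LNA Malat1 against LNA Control for the 9 tested adhesion genes, with points for the limma estimate, bars for its 95% interval, and dashed lines at a 1.5-fold change. Cxadr (0.87) lies beyond the dashed line, Dsp (0.36) lies between it and 0, and the intervals of the other genes lie near 0, that of Ctnna1 (-0.27 to -0.01) just below it.

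Among the desmosomal plaque genes, Dsp alone passed the test. Dsp (mm10, chromosome 13, 38151294 to 38198577, plus strand), which encodes desmoplakin, the protein that ties the plaque to desmin, had 1755, 1821, and 1769 normalized counts in LNA Control against 2389, 2179, and 2278 in LNA Malat1. Every LNA Malat1 library was above every LNA Control library. It averaged 1782 ± 34.8 (SD, n = 3) in LNA Control and reached 2256 ± 109 (SD, n = 2) in LNA Malat1. Dsp rose by 0.36 on the log2 scale (95% interval 0.24 to 0.48, limma adjusted p = 0.00049). With 1616 to 2538 recovered reads per library, counting error was at most 2.49%. Leaving out any 1 library kept the adjusted p of Dsp between 0.00013 and 0.009, and its rise stayed under the 1.5-fold minimum. Of the 1030 tested genes that averaged 1000 normalized counts or more, 9.42% were higher and 20.9% lower by the adjusted p alone. The transcript Gm10129, which covers 499 bases of Dsp exons on the opposite strand, had a normalized count of 4 to 9 in every library.

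The other plaque genes were measured at lower counts. Jup (chromosome 11, 100368958 to 100397763, minus strand), which encodes plakoglobin, a plaque protein shared by desmosomes and adherens junctions, had 394, 327, and 315 in LNA Control against 358, 372, and 399 in LNA Malat1. The groups overlapped, with LNA Control replicate 1 nearly as high as the highest LNA Malat1 library and the other controls below all of LNA Malat1. Its log2 fold change was 0.13 (95% interval -0.05 to 0.31, limma adjusted p = 0.26), and without LNA Control replicate 1 it was 0.23 (limma adjusted p = 0.015). Pkp2 (chromosome 16, 16213318 to 16272712, plus strand), the gene of plakophilin-2, the armadillo protein that clusters desmoplakin at the membrane, had 370, 387, and 425 in LNA Control against 437, 427, and 419 in LNA Malat1. Only LNA Control replicate 3 reached the range of LNA Malat1. The log2 fold change of Pkp2 was 0.12 (95% interval -0.01 to 0.25, limma adjusted p = 0.17), and it was 0.18 without LNA Control replicate 3 (limma adjusted p = 0.039).

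The RefSeq promoter table (GRCm38.p6, the assembly of mm10) held 4 of the 10 genes. Dsp, Jup, and Tjp1 have a single start there, and Ctnna3, with 3 starts, is not shown. The 120 bases before each start are shown because Dsp passed the test while Jup and Tjp1 did not. The GC box letters GGGCGG, read on either strand, are in capitals. Cxadr, which also passed, has no entry in this promoter table, so no window is shown for it. The windows are chr13:38151174-38151293 on the plus strand for Dsp, chr11:100397791-100397910 on the minus strand for Jup, and chr7:65371245-65371364 on the minus strand for Tjp1, each printed 5′ to 3′ in the direction of its gene. The Dsp window is covered by the exon of Gm10129, and the Tjp1 start lies inside the span that the deposited table gives for the gene.
Dsp: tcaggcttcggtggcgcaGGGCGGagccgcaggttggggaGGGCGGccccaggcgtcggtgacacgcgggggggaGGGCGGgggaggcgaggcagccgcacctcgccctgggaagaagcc
Jup: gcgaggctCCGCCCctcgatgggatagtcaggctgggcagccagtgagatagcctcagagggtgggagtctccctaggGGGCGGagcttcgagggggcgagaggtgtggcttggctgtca
Tjp1: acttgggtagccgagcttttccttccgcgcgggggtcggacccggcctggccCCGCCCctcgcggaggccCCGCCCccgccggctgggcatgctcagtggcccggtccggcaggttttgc
All 3 windows were rich in G and C, with 77.5% for Dsp, 66.7% for Jup, and 75.8% for Tjp1, where the median window of this length held 54.2%. In the 250 bases before the start, the GC box letters occurred 4 times in Dsp, 2 times in Jup, and 2 times in Tjp1, and 32.7% of all 32851 windows of that length held them at least once. The CCAAT box letters CCAAT were found in Jup only (33.8% of all windows hold them). The letters TATAAA (12.4% of windows), CATTCC (12.6%), and CANNTG (66.2%), also read on both strands, were in none of the 3 windows. These matches describe letters and not bound sites.

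Both desmosomal cadherin genes lay close to their LNA Control levels. Dsg2 (chromosome 18, 20558074 to 20604521, plus strand), the gene of desmoglein-2, had 2121, 2245, and 2011 normalized counts in LNA Control against 1946, 1996, and 1953 in LNA Malat1. All LNA Malat1 libraries were below all LNA Control libraries, although LNA Malat1 replicate 2 came close to LNA Control replicate 3. The log2 fold change of -0.11 (95% interval -0.24 to 0.01) had a limma adjusted p of 0.16, and without LNA Control replicate 3, the lowest control, it was -0.15 (limma adjusted p = 0.022). Dsc2 (chromosome 18, 20030633 to 20059554, minus strand), the gene of its partner cadherin desmocollin-2, had 126, 132, and 130 in LNA Control against 127, 122, and 107 in LNA Malat1. LNA Malat1 replicate 3 was lowest, and the groups overlapped. Its log2 fold change was -0.13 (95% interval -0.33 to 0.07, limma adjusted p = 0.33), so a fall of Dsc2 by as much as 0.33 on the log2 scale is within the interval.

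The classical adherens genes were a little lower in LNA Malat1 without passing the test. Cdh2 (chromosome 18, 16588877 to 16809246, minus strand), which encodes N-cadherin, the adhesion receptor of the fascia adherens, had 930, 933, and 912 normalized counts in LNA Control against 898, 898, and 847 in LNA Malat1. The groups did not overlap, but the log2 fold change was only -0.07 (95% interval -0.18 to 0.04, limma adjusted p = 0.32). Ctnna1 (chromosome 18, 35118859 to 35254779, plus strand), the gene of alpha-E-catenin, which links the cadherin complex to actin, had 1518, 1613, and 1423 in LNA Control against 1384, 1420, and 1323 in LNA Malat1. The groups did not overlap, but LNA Control replicate 3 and LNA Malat1 replicate 2 nearly met. For Ctnna1 the log2 fold change was -0.14 (95% interval -0.27 to -0.01, limma adjusted p = 0.093), and it was -0.19 without LNA Control replicate 3 (limma adjusted p = 0.013). With library totals set equal, the log2 fold changes were -0.03 for Cdh2 and -0.10 for Ctnna1. Tested genes that averaged 1000 normalized counts or more, as Ctnna1 did, had a median log2 fold change of -0.04. Ctnna3 (chromosome 10, 63430098 to 65003667, plus strand), the gene of alpha-T-catenin, the heart and testis form, was at the edge of detection with 1, 2, and 4 in LNA Control against 2, 1, and 7 in LNA Malat1. The groups overlapped and its mean was under the minimum of 5, so Ctnna3 was not tested, and a difference was not detectable at this depth. Of the 2 alpha-catenin genes at the cardiac disc, the HL-1 libraries thus held almost only Ctnna1.

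Of the tight junction genes, Cxadr passed the test and Tjp1 did not. Tjp1 (chromosome 7, 65296165 to 65527781, minus strand), the gene of ZO-1, a scaffold that binds actin, connexin 43, and CAR, had 1404, 1429, and 1434 normalized counts in LNA Control against 1425, 1376, and 1375 in LNA Malat1. The groups overlapped. Its log2 fold change was -0.03 (95% interval -0.14 to 0.08, limma adjusted p = 0.67), and the sign turned when library totals were set equal (0.01) or after quantile normalization (0.02). Cxadr (chromosome 16, 78301489 to 78359774, plus strand) encodes the coxsackievirus and adenovirus receptor CAR, an adhesion molecule of the immunoglobulin family. It had 35, 59, and 38 in LNA Control against 80, 80, and 77 in LNA Malat1. LNA Control replicate 2 lay between the other controls and LNA Malat1, and the groups did not overlap. Cxadr averaged 44.0 ± 13.1 (SD, n = 3) in LNA Control and reached 79.2 ± 1.1 (SD, n = 2) in LNA Malat1. The SD of LNA Malat1 rests on 2 values, 1 of them an average of replicates 1 and 3. It is thus no measure of precision to set beside that of LNA Control. Its log2 fold change was 0.87 (95% interval 0.48 to 1.26, limma adjusted p = 0.0033).

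Cxadr was called upregulated with any 1 library left out, with a log2 fold change of 0.73 to 1.09 and an adjusted p of 0.00069 to 0.023 (limma). It rested on 32 to 86 recovered reads per library, for which counting error alone was 17.7% at the lowest. The 95% interval of its fold change, 1.39 to 2.39, included the 1.5-fold minimum, and against the null of a 1.5-fold change the limma adjusted p was 1.0. Genes measured at such counts were called upregulated more often than others, 11.8% of the 1766 tested genes that averaged 40 to 90 normalized counts, and 4.53% of these were called downregulated. Their median log2 fold change was 0.09. Both tested leukocyte markers, Cd68 and Csf1r, were called upregulated as well, where 8.00% of all tested genes were. They averaged 26.8 and 25.0 normalized counts, below the range of 40 to 90. Over the 3 listed markers in the table, the summed normalized count was 35 to 37 in LNA Control and 59 to 90 in LNA Malat1. The part of these markers in the result for Cxadr was not tested. With 1 library left out, Cd68 was called in 2 of 6 fits, those without LNA Control replicate 1 or 3, and Csf1r in 4 of 6, but not without LNA Malat1 replicate 1 (limma adjusted p = 0.082) or 2 (0.067). Cd68 also did not pass when LNA Malat1 replicates 1 and 3 were merged (limma adjusted p = 0.068).

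All genes that overlap exons of an adhesion gene were examined, because the authors left out reads that overlapped several genes and the strand setting of the counting is not given in the sources used here. The widest overlap was between Cxadr and Btg3, an antiproliferative gene on the opposite strand, over 695 bases, or 9.39% of the exonic length of Cxadr. Btg3 had 31, 33, and 28 normalized counts in LNA Control against 13, 16, and 13 in LNA Malat1. The groups did not overlap, and Btg3 was downregulated (log2 fold change -1.08, 95% interval -1.55 to -0.61, limma adjusted p = 0.0029), also with any 1 library left out. Cxadr and Btg3 thus moved in opposite directions, and the part of the shared bases in either result was not tested. Overlaps of 330 bases between Dsg2 and Gm16090 and of 95 bases between Ctnna1 and Lrrtm2 involved genes with normalized counts of at most 6, and Cxadr also shares 5 bases with Gm49590.

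Apart from the 1 added to each normalized count, ratios of partner genes within a library do not depend on how the libraries were scaled. The added 1 weighs most on low genes. With pseudocounts of 0.5 and 5, the mean difference was 0.39 and 0.28 for Ctnna3 to Ctnna1. It was 0.91 and 0.84 for Cxadr to Tjp1. On the log2 scale, 5 ratios were compared by an exact permutation test (two-sided), which for 3 against 3 libraries cannot give a p under 0.1. The log2 ratio of Cxadr to Tjp1 was -5.29, -4.58, and -5.20 in LNA Control against -4.14, -4.09, and -4.14 in LNA Malat1. All LNA Malat1 values were above the LNA Control values, with a mean difference of 0.90 (exact permutation p = 0.1, adjusted p = 0.17 over the 5 ratios). The ratio of Pkp2 to Dsp was -2.24, -2.23, and -2.06 in LNA Control against -2.45, -2.35, and -2.44 in LNA Malat1. It was lower in every LNA Malat1 library, by 0.24 on average (exact permutation p = 0.1, adjusted p = 0.17). Likewise, Jup to Dsp was -2.15, -2.47, and -2.49 in LNA Control against -2.74, -2.55, and -2.51 in LNA Malat1, again without overlap and with a mean difference of -0.23 (exact permutation p = 0.1, adjusted p = 0.17). LNA Control replicate 3 and LNA Malat1 replicate 3 were only just apart in this ratio. The balance of the desmosomal cadherins, Dsc2 to Dsg2, was -4.06, -4.08, and -3.94 in LNA Control against -3.93, -4.02, and -4.18 in LNA Malat1 (exact permutation p = 1.0). The groups overlapped, with means of -4.03 and -4.04. Ctnna3 to Ctnna1 had means of -8.93 and -8.56 (exact permutation p = 0.6), and its libraries overlapped. None of the 5 ratios passed 0.05, which the design does not allow. The ratios are not independent of the single-gene results. Those of Pkp2 and Jup share Dsp, whose log2 fold change was 0.36, beside 0.12 for Pkp2 and 0.13 for Jup. In Cxadr to Tjp1, the log2 fold change was 0.87 for Cxadr and -0.03 for Tjp1.

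**Figure D4:**
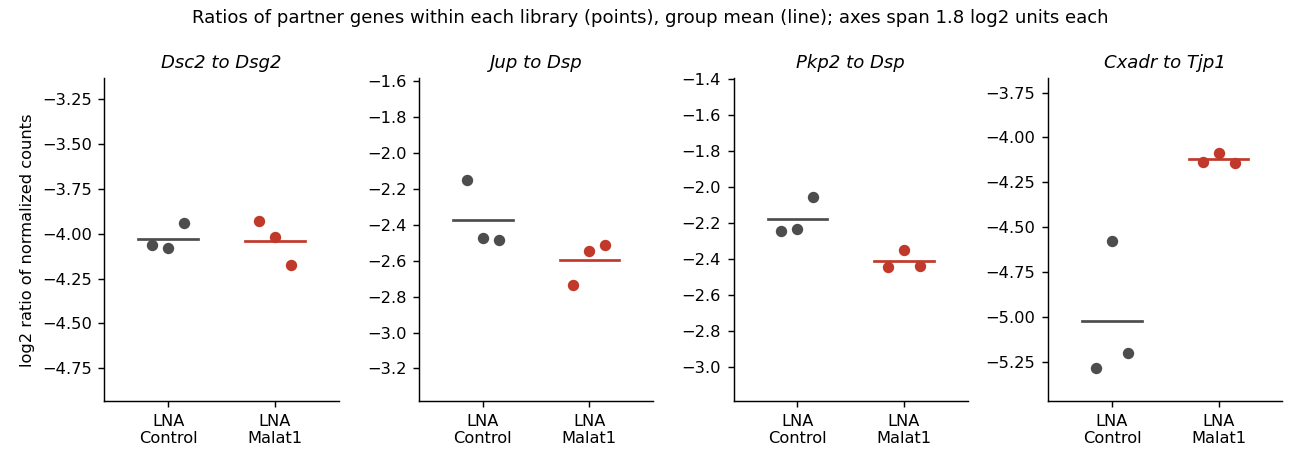
Log2 ratios of the normalized counts of partner genes, with 1 added to each count, in each library (points), with a line at the mean of each group. Every axis spans the same number of log2 units. Cxadr to Tjp1 is higher in LNA Malat1 by 0.90, Pkp2 to Dsp and Jup to Dsp are lower by 0.24 and 0.23, and the groups overlap in the other ratios.

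Further genes of the same junctions were taken from lists of 78 genes, of which 66 were in the table and 49 were tested. Changes went in both directions. In all, 4 were called upregulated and 3 downregulated, 9 were higher and 11 lower by the adjusted p alone, and the shares over all tested genes were 8.00%, 2.92%, 14.3%, and 14.0% in the same order. The median log2 fold change was -0.01. The called genes were Gja1, Nectin4, Cgn, and Ank2 on the higher side and Pard3, Magi1, and Cdh15 on the lower side. Of 17 tested tight junction genes, 1 was called upregulated and 2 downregulated, and 4 were higher and 4 lower by the adjusted p alone (8.00%, 2.92%, 14.3%, and 14.0% of all, median 0.07). Pard3, the gene of the polarity scaffold PAR-3, had 1110, 1204, and 1193 normalized counts in LNA Control against 474, 432, and 504 in LNA Malat1. These groups were far apart, and Pard3 was downregulated by 1.31 on the log2 scale (log2 fold change -1.31, limma adjusted p = 1.3e-07). Magi1, a scaffold gene of tight and adherens junctions, had 1005, 985, and 1028 against 483, 440, and 458 and was downregulated to a similar degree (log2 fold change -1.13, limma adjusted p = 1.3e-07). Cgn, which encodes cingulin, a ZO-1 partner in the tight junction plaque, had 142, 138, and 139 against 282, 251, and 242 and was upregulated (log2 fold change 0.88, limma adjusted p = 5.6e-06). In each of these genes the groups did not overlap, and each was called with any 1 library left out.

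Changes in other genes of the tight junction list were smaller. Tjp3, the gene of ZO-3, was higher by 0.49 in log2 units (limma, adjusted p = 0.0099), although not without LNA Malat1 replicate 2 (limma adjusted p = 0.057). Jam3, a junctional adhesion molecule gene, fell by 0.38 in log2 units (limma, adjusted p = 0.0015) and Mpdz, a PDZ scaffold gene, by 0.21 in log2 units (limma, adjusted p = 0.0068). Cgnl1, the paralog of Cgn, also passed (log2 fold change 0.17), in 2 of 6 fits with 1 library left out. It lies outside the rule for named genes and was named after its values were seen.

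Among 13 tested adherens junction genes, 1 was called upregulated and 1 downregulated, and 2 were higher and 3 lower by the adjusted p alone (8.00%, 2.92%, 14.3%, and 14.0% of all, median -0.07). Nectin4, an immunoglobulin-type adhesion gene, had 21, 14, and 15 in LNA Control against 43, 33, and 35 in LNA Malat1 and was upregulated (log2 fold change 1.12, limma adjusted p = 0.0028). Cdh15, the gene of M-cadherin of skeletal muscle, had 53, 55, and 54 against 32, 35, and 28 and was downregulated (log2 fold change -0.76, limma adjusted p = 0.0034). Neither overlapped between the groups, and both were called with any 1 library left out. Ctnnb1, the gene of beta-catenin, which binds alpha-E-catenin to N-cadherin, fell by 0.24 in log2 units (limma, adjusted p = 0.0062). Nectin3 (log2 fold change 0.27, limma adjusted p = 0.018) and Ctnnal1 (-0.18, limma adjusted p = 0.022) passed in only 3 and 2 of the 6 fits with 1 library left out. For Nectin3 the adjusted p was 0.097 without LNA Control replicate 2, 0.069 without LNA Malat1 replicate 1, and 0.09 without LNA Malat1 replicate 3. For Ctnnal1 it passed only without LNA Control replicate 1 (0.0094) or LNA Control replicate 3 (0.016). Of the other desmosome genes, which are mostly epidermal, 3 of 13 were tested. Des, the gene of the desmin filament that desmoplakin binds, fell by 0.29 on the log2 scale while Dsp rose (limma adjusted p = 0.0082).

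Of 16 tested genes of the disc beyond its adhesion complexes, 2 were called upregulated and 0 downregulated, while 3 were higher and 3 lower by the limma adjusted p alone (8.00%, 2.92%, 14.3%, and 14.0% of all, median -0.03). Before adjustment, 4 were lower at a limma p under 0.05. Gja1, the gene of connexin 43, the main gap junction protein of ventricular muscle and a ZO-1 ligand, had 21, 13, and 18 normalized counts in LNA Control against 68, 59, and 72 in LNA Malat1. The groups were far apart (log2 fold change 1.90, 95% interval 1.46 to 2.34, limma adjusted p = 2.6e-05), and the interval lay above that of Cxadr. Ank2, the gene of ankyrin-B, had 17, 16, and 20 against 36, 30, and 24 (log2 fold change 0.72, limma adjusted p = 0.031). This call was lost without LNA Control replicate 2 (limma adjusted p = 0.089), LNA Malat1 replicate 1 (0.14), or LNA Malat1 replicate 2 (0.092), and when LNA Malat1 replicates 1 and 3 were merged (0.052). Xirp1, an actin-binding repeat gene of the disc, was higher by 0.38 (limma adjusted p = 0.00059). Ank3, the gene of ankyrin-G, was lower (log2 fold change -0.54, limma adjusted p = 1.1e-05). Vasp, an actin regulator gene, was also lower (-0.23, limma adjusted p = 0.014), but its adjusted p was 0.074 without LNA Malat1 replicate 2 and 0.067 without LNA Malat1 replicate 3.

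**Figure D5:**
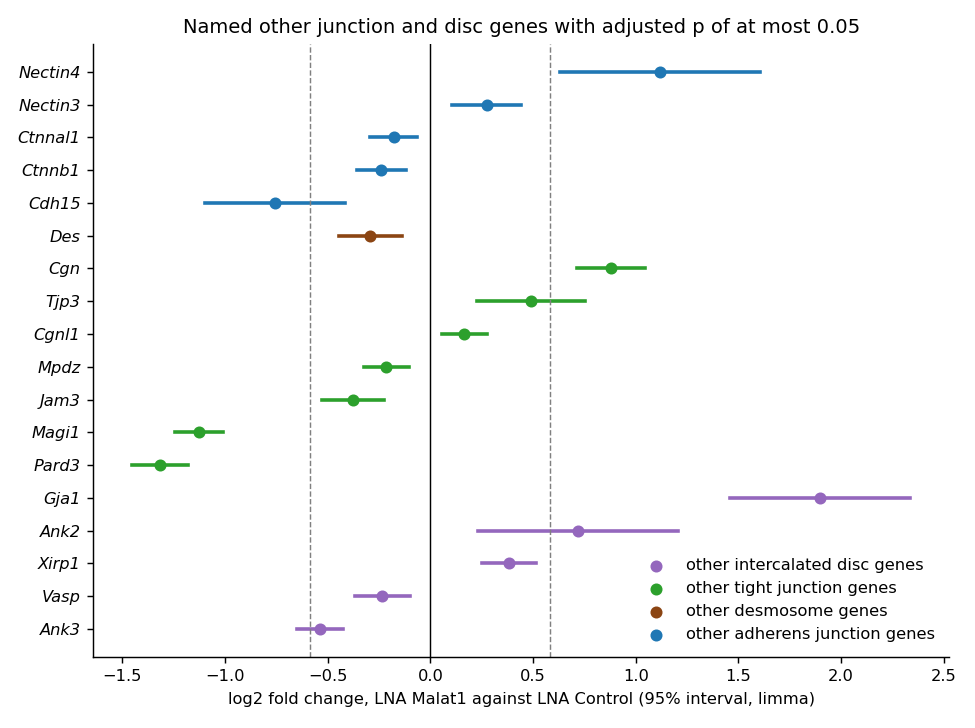
Log2 fold change of LNA Malat1 against LNA Control (limma, bars for the 95% interval, dashed lines at 1.5-fold) for 18 further junction and disc genes with an adjusted p of at most 0.05, coloured by list. Gja1 (1.90) and Nectin4 (1.12) lie farthest to the right, Pard3 (-1.31) and Magi1 (-1.13) farthest to the left, and 8 of the genes shown lie above and 10 below 0.

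The span of these genes was examined after their values were seen. Pard3 spans 548.4 kb, Magi1 608.5 kb, and Ank3 628.7 kb, where the median tested gene spans 17.6 kb and 1.81% of tested genes span at least 300 kb. Of the 7 tested genes of the further lists that span at least 300 kb, 3 were lower and 1 (Ank2, 577.7 kb) was higher by the adjusted p, and Magi2, Cdh13, and Patj did not pass. Over all 283 tested genes of that span, 47.3% were lower and 7.77% higher by the adjusted p. Among the 10 adhesion genes only Ctnna3 is that long (1573.6 kb), and it was barely detected. Tjp1 (231.6 kb) and Cdh2 (220.4 kb) are the next longest, and neither passed the test.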

How the data were processed

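By the methods and the submitters' processing notes, the authors trimmed single-end reads of stranded total RNA libraries (Trimmomatic 0.39), mapped them to mm10 (STAR 2.7.7a), counted reads on exons without those on several genes or places (featureCounts 1.6.5), and normalized with DESeq2 1.30.0. The deposited values are a score: these counts after division by a library's factor, as rounded whole numbers. A count model was therefore not used. The table holds 0 mitochondrial genes.

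Genes with a mean of at least 5 (15650) were tested on log2(normalized count + 1) by limma 3.58.1 (R 4.3.3; lmFit, eBayes with trend), two-sided, Benjamini-Hochberg adjusted over all of them. Fold changes are on that scale, which understates changes of low genes. Partner ratios were tested with scipy 1.17.1. On simulated data, all 200 genes changed by 2-fold were recovered among 15446 tested, with 1 unchanged gene called. The changed genes were drawn only from those with a mean of at least 50, and all genes and libraries had the same small dispersion. The simulation therefore checks that the code runs as meant. It does not give the error rate of the real calls, of low genes, or of smaller changes. The factor of LNA Malat1 replicate 2 was less certain (1.0022 to 1.00584), and intervals on reads cover counting error only. Exon lengths and overlaps are from GENCODE M21, in which 21036 of the 21269 genes have the same position.

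The 10 genes and all lists were chosen with earlier results of these data known. Named are the 10 genes, Malat1, every called gene of the further lists, and up to 4 more per list by adjusted p, of which 2 are counted but not reported here. Marker lists covered cardiomyocytes, fibroblasts, endothelium, epithelium, smooth muscle, and leukocytes. Alternatives were pseudocounts of 0.5 and 5, other scalings, filters, fold minimums, voom weights on recovered reads, the replicate block, LNA Malat1 replicates 1 and 3 as 1 sample, and leaving out each library.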

Additional observations from a re-analysis of the deposited data

How the results depend on the processing

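Cxadr was the 1 adhesion gene called upregulated, and 0 were called downregulated, under every alternative run except those that change the fold minimum: 2 were higher without it (with Dsp), 0 at 2-fold, and 0 in the test against a 1.5-fold change, where Malat1 did not pass either (limma adjusted p = 0.18). Over all genes, 1252 were called higher and 457 lower, 73.3% higher. The numbers were 748 and 718 with quantile normalization (51.0% higher), 2231 and 2195 with no fold minimum, 742 and 99 at 2-fold, and 192 and 99 against a tested 1.5-fold change. With a mean of at least 50, 317 were higher and 349 lower, so the balance turned. Leaving out 1 library gave 769 (without LNA Malat1 replicate 1) to 1621 higher, 796 without LNA Malat1 replicate 3, and 405 to 476 lower. With LNA Malat1 replicates 1 and 3 as 1 sample, 796 were higher, 1193 of the calls were shared with the 1709, and the limma adjusted p was 0.022 for Cxadr and 0.0076 for Dsp. Of the further junction and disc genes named, Nectin3, Ctnnal1, Cgnl1, and Ank2 then did not pass. Neither did the markers Tnnt2, Tbx5, and Cd68. The members' median of -0.031 became 0.006 with library totals equal, 0.017 with quantile normalization, both through Tjp1 (0.006 and 0.017), and 0.044 with no filter, which adds Ctnna3. Same-numbered libraries deviated together weakly (correlations 0.086, 0.182, and 0.083), but more than differently numbered ones (-0.189 to 0.046). The main test did not take the numbers as pairs, and whether they mark pairs is not settled by these values. With the replicate block, 1297 genes were higher and 442 lower, 1647 of them shared with the 1709, and Ctnna1 had a limma adjusted p of 0.046. No other adhesion gene changed sides with the block. In all, 160 alternative single-gene values kept their direction and side of the threshold, 5 newly passed (Ctnna1, Jup, Pkp2, and Dsg2, given above), 3 no longer passed (Dsp, Cxadr, and Malat1, against a 1.5-fold change), and 2 turned sign (Tjp1). Depth limits Ctnna3 and, in part, Cxadr.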

Other observations

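Markers of other cell types were summed in each library. Smooth muscle markers, all 6 of which were in the table, summed to 2901 to 3187 normalized counts in LNA Control and 3021 to 3133 in LNA Malat1. They went in both directions. Cnn1 (log2 fold change 0.40) and Smtn (0.33) were higher and passed the test. Tagln (0.15) was higher, and Myh11 (-0.60), Mylk (-0.10), and Acta2 (-0.05) were lower, without passing. Fibroblast markers, 4 of 8 in the table, summed to 4329 to 5079 and 3845 to 4017. Most of these sums came from Col1a1 (1794 to 2486 across the 6 libraries) and Col3a1 (1952 to 2650). Pdgfra (30 to 48) was low, and Col1a2 (0 to 1) was near absent and not tested. Col3a1 fell by 0.33 on the log2 scale and passed the test, while Col1a1 (-0.23) and Pdgfra (-0.42) were lower without passing. Leukocyte markers, 3 of 6 in the table, were low, with sums of 35 to 37 and 59 to 90. Both tested ones were called higher, where 8.00% of all tested genes were. Csf1r had 13, 22, and 10 against 43, 39, and 23 (log2 fold change 1.19) and was called in 4 of 6 fits with 1 library left out, and Cd68 (0.79) in 2 of 6. Endothelial markers (4 of 8 in the table, 44 to 49 against 52 to 66) and epithelial markers (4 of 8, 6 to 13 against 13 to 21) were low. Only 3 endothelial markers and 1 epithelial marker were tested, and none of them passed. Their log2 fold changes were all positive, at 1.29 for Pecam1, 0.16 for Tek, 0.17 for Esam, and 1.27 for Krt18. Among the cardiomyocyte markers Tnnt2 (0.15) was higher and Gata4 (-0.21) and Tbx5 (-0.22) were lower by the adjusted p, those of Tnnt2 and Tbx5 in only 1 of 6 fits with 1 library left out. Whether any of these cells or markers has a part in the changes of Cxadr or Dsp was not tested.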
